A study of Mus musculus with 25 samples.

Results

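A set of 10 genes of skeletal muscle were followed through 25 mouse melanomas that had been profiled by bulk RNA sequencing. The 10 genes were taken by symbol from the 55450 rows of the table of gene counts. They were Ckm, Acta1, Myh1, Myh2, Myh4, Mylpf, Tnnt3, Tnni2, Pvalb and Myh7. Each had 1 row, and all 10 passed the filter on low counts that left 18031 genes for testing. The question asked of them was how much muscle transcript each tumour piece held, and whether that amount differed with treatment and outcome.

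The tumours were grown in C57BL/6 mice from B2905, a mouse melanoma line also called M4, so every group shared the same line and host strain. Treatment started at a mean tumour volume of 75 mm3, with antibody given at 10 mg/kg. Control tumours (n = 5) came from mice given IgG2b, an isotype antibody without a tumour target. The other 20 came from mice given antibody against CTLA-4, a brake on T-cell activation, and were sorted by tumour size in the 10 to 11 days after the last dose into non-responder (still growing, n = 6), stable (n = 6) and responder (shrinking, n = 8). The 5 untreated mice were not analysed here. The labels used here give neither the site of implantation nor the age or sex of the mice, and each tumour is taken as 1 mouse. Tumours are numbered within a group in the order of their records. Outcome was defined by tumour size and not by any of these transcripts.

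Skeletal muscle contracts through the sarcomere, in which myosin heavy chains pull on actin filaments and troponin and tropomyosin gate that pull with calcium. Each adult fibre type is marked by its own myosin heavy chain: Myh7 in slow type I fibres, Myh2 in type IIA, Myh1 in type IIX and Myh4 in type IIB, the fastest. Embryonic and neonatal chains (Myh3 and Myh8) are known from developing and regenerating fibres. A melanocyte or a lymphocyte makes little or none of these proteins, while limb and trunk muscle and the thin muscle sheet under mouse skin make them in bulk.

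The genes lie on 5 chromosomes of the GRCm38 (mm10) build. Ckm (ENSMUSG00000030399.2), the cytosolic creatine kinase of muscle, spans chr7:19404776-19422841 on the plus strand. Acta1 (ENSMUSG00000031972.5), skeletal alpha actin, spans chr8:123891769-123894751 on the minus strand. Mylpf (ENSMUSG00000030672.12), the regulatory light chain of fast myosin, spans chr7:127208890-127214298. Tnni2, the fast inhibitory troponin, and Tnnt3, the fast tropomyosin-binding troponin, lie on the same chromosome at chr7:142441808-142444410 and chr7:142498836-142516009. The 3 fast myosin genes sit side by side on the plus strand of chromosome 11, Myh2 at chr11:67171027-67197517, Myh1 at chr11:67200052-67224575 and Myh4 at chr11:67238029-67260446. Pvalb, the calcium buffer parvalbumin, is at chr15:78191114-78206400, and Myh7 is at chr14:54970684-54994626, both on the minus strand.

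The 250 bases before the transcription start are printed for 4 of the genes as a description. Whether these bases bear on how the genes varied across tumours was not tested. Sequences are from RefSeq on GRCm38.p6, read 5′ to 3′ on the strand of the gene, and 8 of the 10 genes had an entry. Capitals mark E-boxes (CANNTG, bound by myogenic factors such as MyoD), CArG boxes (bound by serum response factor), MEF2 sites and TATAAA, each searched on both strands.
Ckm, chr7:19410844-19411093, plus strand: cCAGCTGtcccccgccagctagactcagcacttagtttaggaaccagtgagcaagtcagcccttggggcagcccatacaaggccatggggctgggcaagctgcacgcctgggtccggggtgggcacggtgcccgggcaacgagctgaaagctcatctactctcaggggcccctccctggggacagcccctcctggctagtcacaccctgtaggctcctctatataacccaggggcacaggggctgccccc
Acta1, chr8:123894776-123895025, minus strand: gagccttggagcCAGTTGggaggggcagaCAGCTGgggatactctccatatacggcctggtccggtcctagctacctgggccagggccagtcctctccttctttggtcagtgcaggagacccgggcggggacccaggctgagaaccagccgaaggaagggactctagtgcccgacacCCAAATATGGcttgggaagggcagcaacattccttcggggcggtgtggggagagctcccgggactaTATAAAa
Mylpf, chr7:127211358-127211607, plus strand: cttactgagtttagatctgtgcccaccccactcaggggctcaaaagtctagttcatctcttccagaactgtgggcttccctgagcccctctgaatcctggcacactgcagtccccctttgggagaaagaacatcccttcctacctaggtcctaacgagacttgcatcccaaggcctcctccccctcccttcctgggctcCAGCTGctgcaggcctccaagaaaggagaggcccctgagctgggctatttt
Myh4, chr11:67237562-67237811, plus strand: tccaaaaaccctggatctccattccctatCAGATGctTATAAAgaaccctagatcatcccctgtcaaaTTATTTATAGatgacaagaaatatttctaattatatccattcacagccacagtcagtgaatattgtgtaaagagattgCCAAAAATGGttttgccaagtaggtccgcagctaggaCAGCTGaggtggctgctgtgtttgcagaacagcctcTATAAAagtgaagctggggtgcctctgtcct
The Ckm and Mylpf windows each held 1 E-box and no other motif of the search. Acta1 held 2 E-boxes, 1 CArG box and 1 TATAAA. Myh4 held 2 E-boxes, 1 CArG box, 1 MEF2 site and 3 TATAAA, of which 1 lies on the opposite strand inside the MEF2 site. Among the genes not printed, Myh2 held no motif of the search, and Myh1 held 1 MEF2 site and 2 TATAAA but no E-box. Pvalb held 0 or 1 E-box and Myh7 held 1 or 2, depending on the start used. Over all 32851 RefSeq windows of 250 bases, an E-box was present in 66.2%, TATAAA in 12.4%, a MEF2 site in 2.92% and a CArG box in 1.47%. A match describes these letters and says nothing of binding in these tumours.

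Libraries held 8764595 to 34311333 counts. The share of counts in protein-coding genes had a median of 87.7% in controls, 86.1% where tumours did not respond and 86.4% where they stayed stable. In responders it was 68.8%, with a range of 23.8% to 87.0%, and responder 1 was the lowest. The number that leads each sample description increases from one group to the next, and what it stands for is not stated in the labels used here. If it gives the order of processing, that order and group cannot be told apart.

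Muscle transcripts were present in all 25 tumours, and the amount differed far more between tumours than between groups. Summed over the 10 genes, the level in counts per 1000000 counts of the library (CPM) was 71.3, 1509, 567, 541 and 895 in controls 1 to 5. Non-responders ran from 162 to 1636 with a median of 1008, and stable tumours from 404 to 1159 with a median of 746. Responders ran from 18.2 to 926 with a median of 379. Responder 1 was the lowest of all tumours and non-responder 1 the highest, a span of 89.9-fold, and every group overlapped every other. The stable group was the most even, with 2.87-fold between its extremes against 21.1-fold in controls, 10.1-fold in non-responders and 50.9-fold in responders. The 10 genes together took 0.00182% to 0.164% of a library's counts. In bulk tissue, fewer cells of a type and less RNA per cell cannot be told apart.

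**Figure D1:**
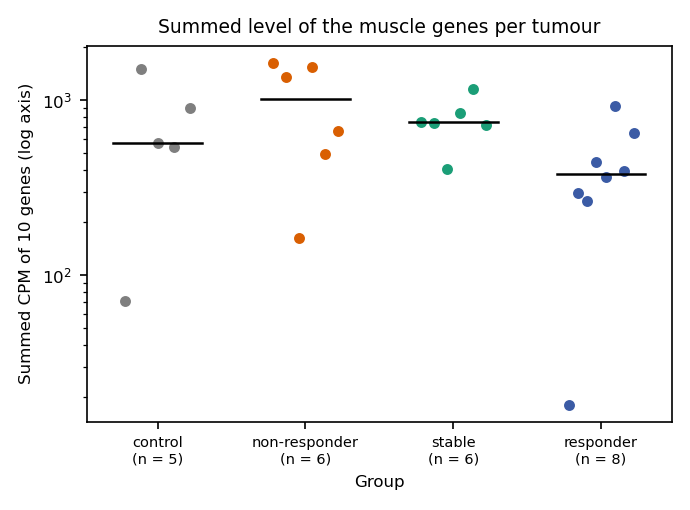
Summed CPM of the 10 muscle genes in each tumour, on a log axis, by group. Points are tumours and bars are group medians (567, 1008, 746 and 379 from left to right), and all groups overlap.

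Ckm, whose product buffers ATP in working fibres, was at 4.97, 120, 40.6, 38.2 and 63.7 CPM in controls 1 to 5. Its level was 9.00 to 124 CPM in non-responders (median 75.7), 24.6 to 65.2 in stable tumours (median 48.6) and 1.36 to 48.9 in responders (median 21.5). Controls and non-responders each had 1 tumour far below the rest, control 1 and non-responder 3, and all groups overlapped. Acta1, the actin of the thin filament, was the more abundant transcript. Its range was 17.9 to 376 CPM in controls (median 152) and 48.4 to 382 in non-responders (median 229). Stable tumours had 83.0 to 238 CPM (median 192) and responders 3.79 to 199 (median 87.6). The same tumours were lowest in each group as for Ckm.

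Mylpf was at 3.66 to 40.3 CPM in controls, with a median of 16.0. Non-responders had 8.73 to 58.0 CPM (median 34.6), stable tumours 13.6 to 42.3 (median 32.7) and responders 0.757 to 22.1 (median 10.6). The median of responders thus lay below the lowest stable tumour. The fast troponins followed: Tnnt3 had medians of 41.4, 64.4, 42.7 and 22.1 CPM in controls, non-responders, stable tumours and responders, and Tnni2 had 22.2, 35.3, 24.0 and 11.8. Pvalb, which speeds relaxation of fast fibres, had medians of 10.4, 22.5, 16.4 and 8.47 CPM. The lowest value of Tnnt3, Tnni2 and Pvalb among all 25 tumours was in responder 1.

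**Figure D2:**
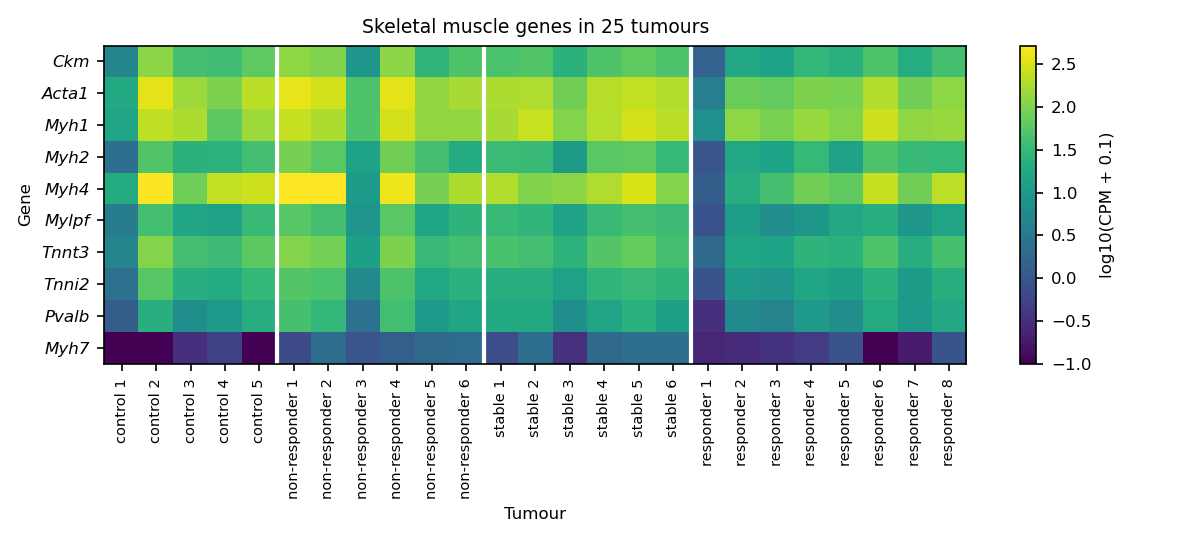
Level of each of the 10 genes in each of the 25 tumours, as log10(CPM + 0.1), with white lines between groups. Control 1, non-responder 3 and responder 1 are dark in nearly every row, and the Myh7 row is at 0 in 4 tumours.

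Per length, genes of fast fibres stood far above the slow myosin. On the RPKM scale, which divides reads by gene length and library depth, means over 25 tumours were 68.2 ± 41.9 (SD) for Acta1, 29.0 ± 18.4 for Tnnt3, 21.9 ± 13.7 for Tnni2, 21.7 ± 13.5 for Mylpf, 20.8 ± 14.8 for Ckm and 18.5 ± 15.5 for Myh4. Myh1 followed at 16.9 ± 8.56 RPKM, Pvalb at 12.9 ± 8.92, Myh2 at 5.09 ± 3.03 and Myh7 at 0.0854 ± 0.0733. Acta1 exceeded Tnnt3, Tnnt3 exceeded Tnni2, Pvalb exceeded Myh2 and Myh2 exceeded Myh7 in 25 of 25 tumours. The neighbours between those steps were not separated: Tnni2 exceeded Mylpf in 12 of 25 tumours, Mylpf exceeded Ckm in 16, Ckm exceeded Myh4 in 19, Myh4 exceeded Myh1 in 12 and Myh1 exceeded Pvalb in 19.

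Of the genes, 9 moved as a unit from tumour to tumour, and Myh7 did not move with them. Across the 25 tumours, on log2(CPM + 0.5), Pearson's r between the 36 pairs of the 9 genes without Myh7 ran from 0.821 to 0.996. Between Myh7 and each of the 9 it ran from 0.275 to 0.475. Ckm and Tnni2 had r = 0.996 (Spearman's rho 0.978), and r was 0.994 without the 2 tumours farthest from the median of Ckm, control 1 and responder 1. Within groups this r was 0.997 in the non-responder, 0.942 in the stable and 0.999 in the responder group. The permutation p was 1e-05 for each of the 8 fast genes with Ckm, the smallest that 100000 resamples can give (2.12e-05 after Benjamini-Hochberg adjustment over 17 relations). For Ckm and Myh7, r was 0.357 and rho 0.343 (permutation p = 0.0781, adjusted 0.102), with r = 0.200 when the same 2 tumours were left out. Within the stable group alone that r was 0.872, against 0.062 in non-responders and 0.218 in responders.

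Outside the 10 genes, those most like them in pattern were other genes of the fibre. Likeness was Pearson's r over 25 tumours with the mean log2 CPM of the 10 genes, ranked over 13474 genes with a mean of at least 1 CPM, and r is given as a description. The first was Eef1a2 (0.978), an elongation factor used by muscle and neurons. It was followed by Trdn (0.975), the triadin of the calcium release site, and by Myot (0.962), Nrap (0.961), Ldb3 (0.959) and Actn3 (0.959), of which Actn3 is the alpha-actinin of fast fibres. Mybpc1, Myl1 and Myoz1 (each 0.958) and Tcap (0.957), the cap of titin, completed the first 10, and 9 of these 10 and 27 of the first 50 were on the lists of genes of muscle or other tissues used here.

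The fast myosins differed in their balance from tumour to tumour. Of the counts of Myh4, Myh1, Myh2 and Myh7 together, Myh4 (type IIB) took 53.4%, 63.7%, 28.0%, 73.6% and 58.8% in controls 1 to 5. Its share was 14.1% to 67.5% in non-responders (median 53.4%), 26.2% to 49.98% in stable tumours (median 44.2%) and 12.3% to 56.6% in responders (median 33.3%). Medians of the share of Myh1 (type IIX) ran the other way, at 32.5%, 38.4%, 45.3% and 56.4% in controls, non-responders, stable tumours and responders. Myh4 counts exceeded Myh1 counts in 4 of 5 controls, 4 of 6 non-responders, 3 of 6 stable tumours and 1 of 8 responders. The groups overlapped, and since these shares were compared after their values had been seen, no test is given. Depth limits the lowest value: responder 1 had 125 myosin counts, and its Myh4 share of 12.3% has a 95% Wilson interval of 7.41% to 18.9%, which covers counting error only.

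**Figure D3:**
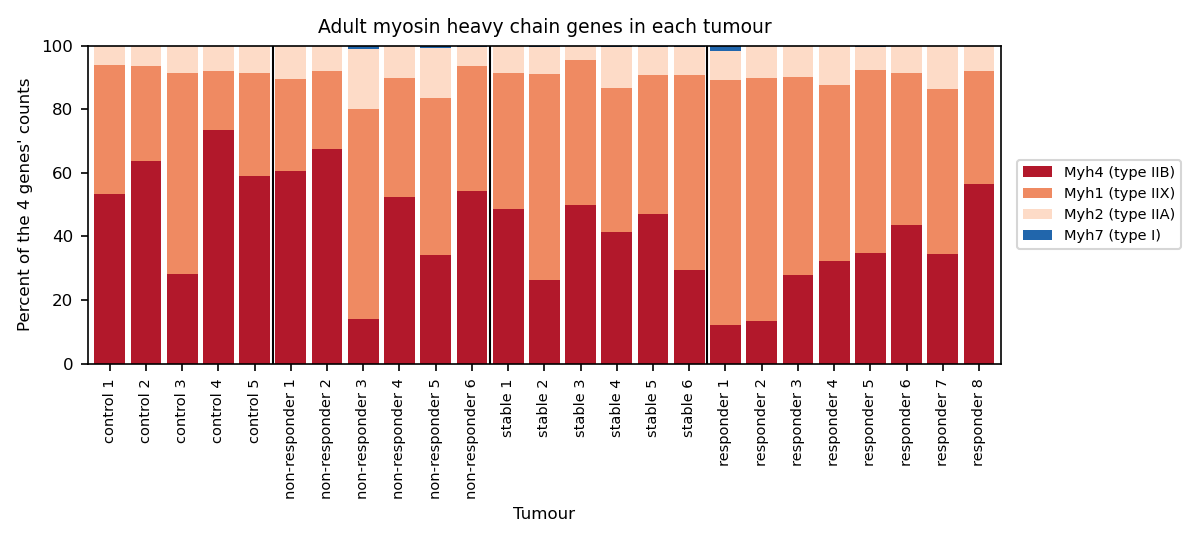
Percent of the summed counts of Myh4, Myh1, Myh2 and Myh7 that each gene took, by tumour, with black lines between groups. Myh4 and Myh1 fill most of every bar, Myh2 takes 4.49% to 18.8%, and Myh7 never exceeds 1.61%.

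Myh2 (type IIA) held medians of 7.79%, 10.2%, 8.52% and 9.37% in the 4 groups in the same order, close to one another against ranges of 4.49% to 18.8% over all tumours. The myosin genes are near-copies in places: 26.7% of the 50-base words of the Myh1 transcript, 26.9% of Myh2, 18.9% of Myh4 and 22.2% of Myh7 also occur in another gene, so the counts of these 4 depend on how shared reads were divided. For Myh7 the closest copy was Myh6, the heart chain, which had a mean of 0.03 CPM. Ckm, Mylpf, Tnnt3, Tnni2 and Pvalb shared none of their 50-base words and Acta1 shared 2.22%. Read length is not given in the sources used here. Acta1 also overlaps Gm20388 on the opposite strand, which had a mean of 49.2 CPM, and whether the counting used strand is not stated.

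Responders held less transcript than non-responders for 3 of the 10 genes. On the log2 scale Ckm was lower by a difference of -1.32 (SE 0.54, adjusted p = 0.0462), Mylpf of -1.35 (SE 0.45, adjusted p = 0.0173) and Myh7 of -1.71 (SE 0.67, adjusted p = 0.0387), by edgeR's quasi-likelihood test with Benjamini-Hochberg adjustment over all genes tested. In this comparison 48.9% of all genes tested were called, so 3 of 10 is no larger a share than in the whole table. The other 7 did not pass: log2 differences were -1.42 for Myh4 (adjusted p = 0.112), -1.13 for Tnnt3 (0.0598), -1.10 for Acta1 (0.0737), -1.09 for Pvalb (0.110), -1.07 for Tnni2 (0.0741), -0.87 for Myh2 (0.187) and -0.26 for Myh1 (0.660). All 10 estimates were below 0, with a median of -1.12 against 0.05 over all genes tested.

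The calls between responders and non-responders moved with the libraries included and with the tool. DESeq2 called 6 of the 10, limma on RPKM called 0, and the count was 7 without non-responder 3, 6 without control 1 (which enters through the shared spread), and 1 without non-responder 2, 4 or 6 or without responder 2, 3 or 7. With the protein-coding percentage entered as covariate, 0 of 10 were called, Ckm was at -0.76 (adjusted p = 0.553) and Myh1 turned to 0.38. For Ckm alone, log2(CPM + 0.5) differed by -1.49 between the 2 groups (two-sided exact permutation p = 0.0806, adjusted over 6 group pairs 0.242; the smallest p this design allows is 0.000666).

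Between responders and stable tumours, 2 of the 10 genes passed, where 38.2% of all genes tested did. The log2 difference was -1.28 for Mylpf (SE 0.45, adjusted p = 0.0287) and -1.91 for Myh7 (SE 0.67, adjusted p = 0.0294) by edgeR's quasi-likelihood test. Estimates for the other 8 ran from -0.88 for Acta1 (adjusted p = 0.170) to -0.58 for Myh2 (adjusted p = 0.411), with Ckm at -0.84 (adjusted p = 0.219). The median of the 10 was -0.79, against 0.01 for all genes tested. The count was 0 without stable 4, stable 5 or responder 7, 1 without stable 2, and 0 by limma or with the protein-coding share as covariate, where Myh1 stood at 0.02 and Myh4 at 0.31. Ckm differed by -1.31 on log2(CPM + 0.5) (two-sided exact permutation p = 0.0260, adjusted 0.156), with an adjusted exact permutation p of 0.0455 without responder 6.

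None of the 10 genes passed between stable tumours and non-responders, where 14.9% of all genes did. The number with an unadjusted p under 0.05 was also 0 of 10 in edgeR, and DESeq2 called 0. The median difference of the 10 was -0.30, from -0.63 for Myh4 to 0.36 for Myh1. These 2 groups had the widest and the narrowest spread of Ckm in CPM, with SDs of 49.5 and 13.1.

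**Figure D4:**
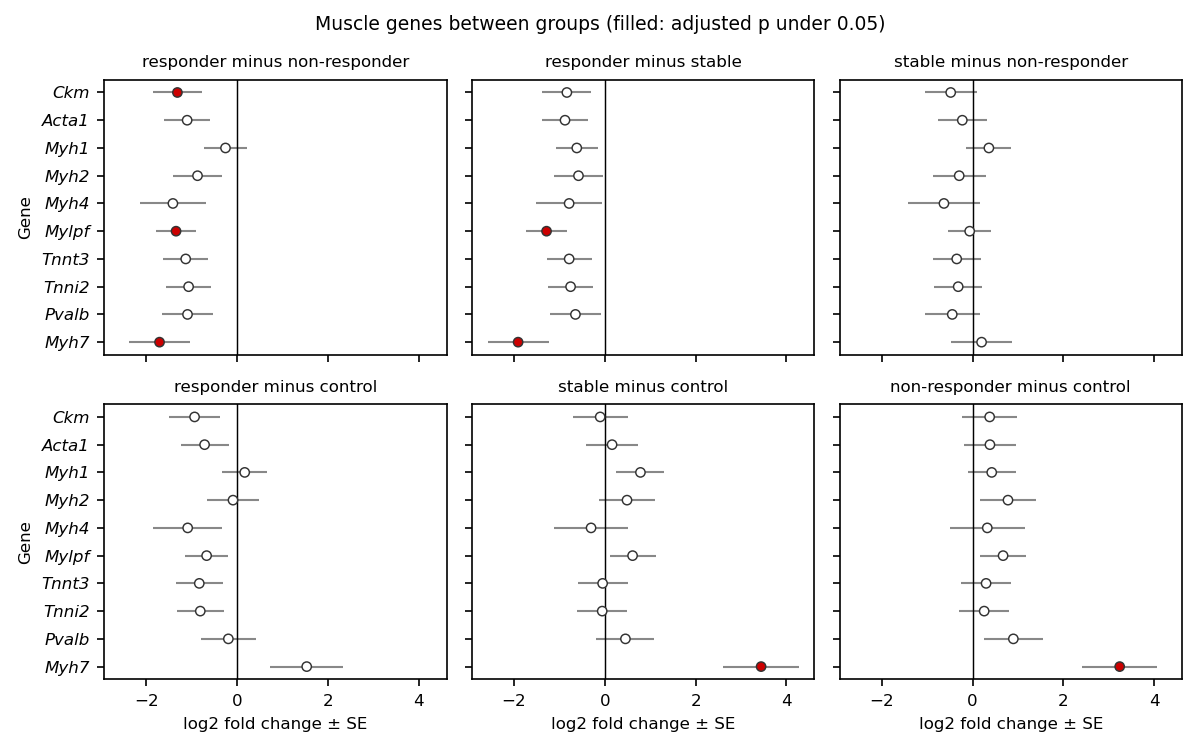
Log2 fold change of each gene with its standard error in 6 comparisons between groups, with filled points where the adjusted p is under 0.05. All 10 points lie left of 0 in each of the 2 upper left panels, and Myh7 stands far to the right of the other 9 genes in the panels of stable tumours and non-responders against controls.

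Against controls, Myh7 was the one gene of the 10 that passed. In responders 0 of 10 genes were called, where 65% of all genes tested were, with 0 at an unadjusted p under 0.05 and 0 by DESeq2. Their median difference was -0.70. The count rose to 3 without control 1 and to 1 without control 4. The stable tumours had 1 of 10 called against 41.8% of all genes, and the non-responders 1 of 10 against 13.9%. All treated tumours together, with the 3 outcome groups weighted equally, had 1 of 10 against 51.1%. The called gene was Myh7 each time. Ckm differed from controls by -0.94 in responders (adjusted p = 0.146), by -0.10 in stable tumours (adjusted p = 0.917) and by 0.38 in non-responders (adjusted p = 0.710), and the sign in stable tumours turned to 0.43 without control 2.

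Myh7, the slow myosin that skeletal type I fibres share with the heart, was listed at 0, 0, 0.22, 0.44 and 0 CPM in controls 1 to 5. In counts these were 0, 0, 5, 15 and 0. A count of 0 allows up to 0.107, 0.121 and 0.170 CPM in controls 1, 2 and 5, taking 3 counts as the limit. Non-responders had 0.64 to 2.06 CPM with a median of 1.52, and none of them overlapped the controls. Stable tumours had 0.23 to 2.21 CPM with a median of 1.97, and 1 of them (stable 3) lay within the range of controls. Responders had 0 to 0.83 CPM with a median of 0.22. The gene was 3.44 higher in stable tumours than in controls on the log2 scale (SE 0.83, adjusted p = 0.00165), 3.24 higher in non-responders (SE 0.82, adjusted p = 0.00960) and 1.53 higher in responders (SE 0.80, adjusted p = 0.0963) by edgeR's quasi-likelihood test. Over all treated tumours the difference was 2.74 (adjusted p = 0.00406). Without control 4, which held 15 of the 20 control counts, these were 4.73, 4.53, 2.82 and 4.03, and the responder difference then passed (adjusted p = 0.0114).

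Among other genes of slow fibres, those that passed against controls were higher in treated tumours. Of 8 slow genes, 5 were tested, and 3, 2 and 2 of them were called in stable tumours, non-responders and responders, beside 41.8%, 13.9% and 65% of all genes. Tnnt1 and Tnnc1, the slow troponins that bind tropomyosin and calcium, rose in all 3 treated groups against controls, and Myoz2 rose in stable tumours. The Tnnc1 call in non-responders (adjusted p = 0.0280) was lost with no filter (adjusted p = 0.0712), with the compared groups alone (0.0800), with limma on log2(RPKM + 1), and without control 1, 2, 4 or 5 or non-responder 5 or 6. Tnnt1 was at 0.25, 0.73, 0.26, 0.35 and 0.57 CPM in controls 1 to 5, 0.67 to 2.16 in non-responders, 0.94 to 2.26 in stable tumours and 0.23 to 1.56 in responders. Stable tumours did not overlap controls, and the log2 difference was 2.12 (SE 0.39, adjusted p = 0.000102). In non-responders it was 1.61 (adjusted p = 0.00598) and in responders 1.17 (adjusted p = 0.00795). Tnni1, the slow inhibitory troponin, and Tpm3, a tropomyosin that non-muscle cells also make, were called in none of these comparisons, and Myl2 and Myl3, light chains shared by slow fibres and heart, averaged 0.20 and 0.04 CPM and were not tested. Myh7b, a further slow-type myosin that was also too low to be tested, stood the other way: it was at 0.15 to 0.89 CPM in controls (54 counts in all) and at 0 to 0.14 in stable tumours (8 counts), with no overlap, and at 0.05 to 0.55 in non-responders and 0 to 0.85 in responders.

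The developmental myosins were higher in each treated group than in controls. Myh3 and Myh8 share some 50-base words with Myh1, Myh2 and Myh4, so their counts too depend on how shared reads were divided. They averaged 5.99 and 5.27 CPM over all tumours, beside 159 for Myh1 and 187 for Myh4. Myh3, the embryonic chain, was at 0.57, 0.77, 3.27, 2.71 and 2.38 CPM in controls 1 to 5. It was at 1.14 to 11.8 CPM in non-responders (median 5.68), 6.49 to 16.2 in stable tumours (median 10.8) and 0.53 to 8.82 in responders (median 4.67). Every stable tumour lay above every control. Its log2 difference from controls was 2.58 in stable tumours (SE 0.56, adjusted p = 0.000628), 1.79 in non-responders (SE 0.54, adjusted p = 0.0288) and 1.31 in responders (SE 0.52, adjusted p = 0.0301). The call in stable tumours held in every setting tried, while those in non-responders and responders were lost with no filter on low counts (adjusted p = 0.0655 and 0.0822) and without control 1 or control 2.

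Myh8, the neonatal chain, was at 0.21, 0.45, 0.68, 1.57 and 0.58 CPM in controls 1 to 5. Non-responders had 1.66 to 10.9 CPM, stable tumours 6.52 to 15.8 and responders 0.70 to 9.78. Neither non-responders nor stable tumours overlapped controls. The log2 difference from controls was 3.89 in stable tumours (SE 0.62, adjusted p = 2.45e-05), 2.84 in non-responders (SE 0.60, adjusted p = 0.00239) and 2.89 in responders (SE 0.59, adjusted p = 0.000173). The Myh8 call in non-responders was lost with limma on both RPKM scales (adjusted p = 0.125 and 0.119), and that in responders with limma on log2(RPKM + 1) (0.0697). Against stable tumours, responders had less Myh3 (-1.27, adjusted p = 0.0330) and less Tnnt1 (-0.96, adjusted p = 0.0252). Neither passed once the protein-coding percentage was a covariate (adjusted p = 0.616 and 0.557). Myh3, Myh8, Tnnt1 and Tnnc1 were singled out after their values had been seen.

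**Figure D5:**
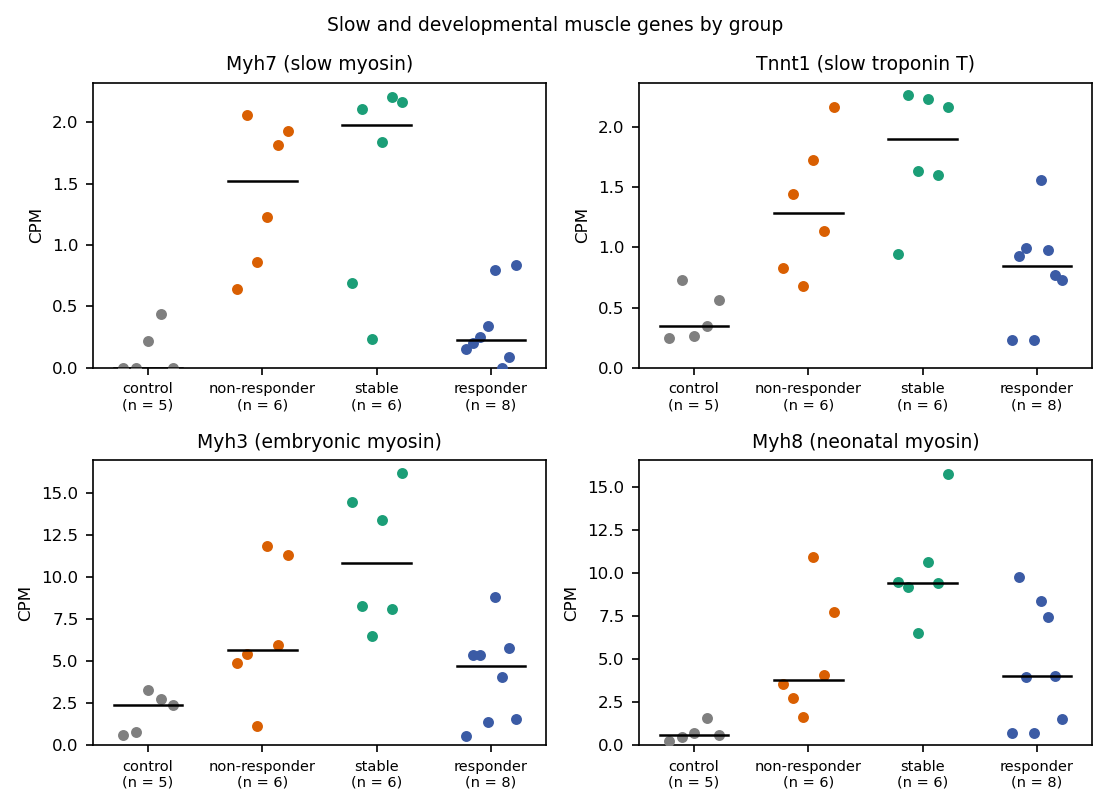
CPM of Myh7, Tnnt1, Myh3 and Myh8 in each tumour by group, with bars at group medians and a linear axis from 0 in each panel. Control tumours stay at or below 0.44, 0.73, 3.27 and 1.57 CPM, and for Tnnt1, Myh3 and Myh8 every stable tumour lies above every control.

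Tumours rich in fast muscle were not always those rich in developmental myosin. Control 2 held 501 CPM of Myh4 and 120 CPM of Ckm, among the highest of all tumours, with 0.77 CPM of Myh3, 0.45 of Myh8 and 0 of Myh7. Responder 5 held 22.6 CPM of Ckm, with 8.82 of Myh3 and 8.39 of Myh8. Among 16 genes of myogenic control and regeneration, 15 were in the table and 10 were tested. Against controls, stable tumours had 4 higher (Myh3, Myh8, Actc1 and Myog) and 1 lower, non-responders 3 higher (Myh3, Myh8 and Actc1), and responders 2 higher (Myh3 and Myh8) and 1 lower. These are 5, 3 and 3 of 10, beside 41.8%, 13.9% and 65% of all genes called, so the list as a whole is near the share over all genes in stable tumours and below it in responders. Actc1 is the cardiac actin that immature skeletal fibres also use, and Myog encodes myogenin, a factor of myoblast differentiation. Pax3, which is a factor of muscle progenitors and also of the melanocyte lineage, was the gene that was lower, at a mean of 105 CPM in controls against 22.4 in stable tumours and 27.1 in responders. Of 8 fibroblast genes, 7 were higher in stable tumours than in controls (41.8% of all genes called), 4 in non-responders (13.9%) and 3 in responders (65%, a larger share than theirs). They summed to 3539 to 6879 CPM in controls and 8156 to 16281 in stable tumours, and their part in the rise of Myh3 and Myh8 was not tested. The markers of satellite cells and early myoblasts were near 0, with means of 0.05 CPM for Pax7, 0.01 for Myf5 and 0.24 for Myod1.

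Among 7 other fast-fibre genes, 1 passed between responders and non-responders, where 48.9% of all genes tested were called. The same 1 of 7 passed between responders and stable tumours (38.2% of all genes), and 0 of 7 between stable tumours and non-responders (14.9%). Each count is below the share over all genes. Myl1, an alkali light chain of fast myosin, fell in responders against non-responders (-1.25, SE 0.50, adjusted p = 0.0420) and against stable tumours (-1.30, SE 0.50, adjusted p = 0.0433). The other 6, with Tnnc2, Actn3 and Tpm2 among them, passed in none of the comparisons. The median log2 difference of the 7 was -0.84 between responders and non-responders and -0.54 between responders and stable tumours. Myl1 lost its call in 15 settings tried against non-responders and in 17 against stable tumours, and kept it in 19 and 17. Settings that ended it were no filter, the stricter filter, limma and the protein-coding percentage as covariate for both, protein-coding genes only against stable tumours, and the omission of non-responder 1, 2, 4 or 6 (against non-responders), of stable 1, 2, 4, 5 or 6 (against stable tumours) or of responder 1, 2, 3, 4, 7 or 8 (both).

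Few genes of the sarcomere scaffold passed. All 20 scaffold genes were tested. Trim63 is a ubiquitin ligase of muscle atrophy also named MuRF1. It was lower in responders than in non-responders and controls (-2.23 and -3.64 on the log2 scale by edgeR). Stable tumours were also lower in Trim63 than non-responders and controls (-1.56 and -2.97). Its means were 16.7, 6.55, 2.05 and 1.18 CPM in controls, non-responders, stable tumours and responders. Within controls Trim63 ran from 13.4 to 20.3 CPM, where Ckm ran from 4.97 to 120. Xirp1, an actin-binding repeat protein, was higher in responders and in stable tumours than in controls (1.74 and 1.71). Ttn and Neb, the giant proteins titin and nebulin, did not pass in either comparison of responders with other treated tumours. Their differences were 0.22 and -0.39 against non-responders, and the median of the 20 was -0.41. The protein-coding share of the libraries differed between the same groups, and its part in the scaffold genes was not tested.

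Among genes of excitation and calcium handling 1 passed. The count was 1 of 15 in responders against non-responders, in responders against stable tumours and in stable tumours against controls. In these comparisons 48.9%, 38.2% and 41.8% of all genes tested were called, each a larger share. Of 15, all tested, Casq2, a calcium store of slow and cardiac muscle, was lower in responders than in non-responders (-0.75) and stable tumours (-1.09) and higher in stable tumours than in controls (0.91), and no other gene of the list was called in any comparison between groups. Atp2a1, the calcium pump of fast fibres, and Ryr1, the calcium release channel, differed by -0.40 and -0.21 between responders and non-responders, both short of the threshold.

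Among 16 genes of muscle energy supply, 7 were lower in responders than in non-responders, where 48.9% of all genes tested were called: Eno3, Pygm, Pfkm, Cox6a2, Cox8b, Cox7a1 and Fabp3. Against controls 7 of 16 were lower in responders, where 65% of all genes were called, with Aldoa in place of Cox6a2. Neither count exceeds the share over all genes, and responders also had the lowest median protein-coding share (68.8%), whose part in these genes was not tested. Several of these are not made by muscle alone. Fabp3, a fatty acid carrier, had means of 24.2, 11.4, 2.78 and 1.14 CPM in the control, non-responder, stable and responder groups, and Cox8b, a subunit of cytochrome oxidase, had 7.22, 1.55, 0.53 and 0.19. Ckm averaged 53.5, 71.7, 47.4 and 24.4 CPM in the same groups. Control 1 had the lowest muscle level of the controls, and the list as a whole summed to at least 1545 CPM in every control. Most of that sum was Aldoa, which alone held 1272 to 1738 CPM in controls, so the sum says little of the other genes.

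Markers of other tissues were read beside the muscle genes. Of the 8 heart genes, Myh6, Nppa and Myl7 were at or near 0 CPM (0.03, 0.00 and 0.02 on average) and were not tested. The other 5 were detected, with means of 29.3 CPM for Nppb, 7.75 for Tnnt2, 3.42 for Myl4, 3.31 for Tnni3 and 0.45 for Mybpc3. Against controls, 4 of 5 were higher in responders (all but Myl4), where 65% of all genes tested were called. All 5 were higher in stable tumours (41.8% of all genes called) and Tnni3 alone in non-responders (13.9%). Among adipocyte genes, 8 of 8 were detected and summed to 6.32 to 69.6 CPM in controls and 7.42 to 54.4 in responders. Their sum was 11.2 to 104 CPM in non-responders and 18.4 to 162 in the stable group. Adipoq and Thrsp, 2 of 8, were lower in responders than in stable tumours, where 38.2% of all genes tested were called. Retn, 1 of 8, was lower in responders than in non-responders (48.9% of all genes called). Lep, 1 of 8, was higher in stable tumours than in controls (41.8%). Each of these counts is below the share over all genes. Adipoq, the adipocyte hormone adiponectin, tracked Ckm across the 25 tumours with r = 0.695 and rho 0.804 (permutation p = 0.00012 and 1e-05, adjusted 0.000227 and 1.89e-05). Without the 2 tumours farthest in Ckm r was 0.678, and within the non-responder, stable and responder groups it was 0.895, 0.578 and 0.408.

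For markers of other tissues r with Ckm was lower than for Adipoq, a difference that was not tested. Krt14, a keratin of the basal epidermis, had r = 0.060 with Ckm (permutation p = 0.780, adjusted 0.828). The protein-coding share had r = 0.582 with Ckm (adjusted permutation p = 0.0120) and rho of 0.188 (adjusted 0.446), with r = 0.332 without control 1 and responder 1 and 0.734 within responders. Total counts had r = 0.031 (adjusted permutation p = 0.882). Melanocyte genes (6 of 6 detected) summed to 10883 to 17684 CPM in controls and 390 to 13880 in non-responders. The sum was 11.0 to 177 CPM in stable tumours and 16.3 to 427 in responders. Mlana, a melanocyte antigen, had r = 0.253 with Ckm (adjusted permutation p = 0.256). Whether muscle transcripts came from muscle cut out with the tumour, muscle enclosed by it or another cell was not tested.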

How the data were processed

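Bulk RNA of 25 tumours was sequenced from a stranded total RNA kit, per the labels' protocols, although the labels also give the molecule as polyA RNA. The authors deposited estimated counts per gene (5.64% of values are not whole) and a separate table of RPKM values, whose gene lengths and denominator are not stated. Per the submitters' processing notes, bcl2fastq 2.17, Trimmomatic, STAR 2.5.1 and RSEM 1.2.22 and the build mm10 were used, with no roles given.

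Groups came from the sample labels. The estimated counts were rounded and tested with edgeR 4.0.16 (R 4.3.3; TMM scaling, filterByExpr, robust quasi-likelihood, 4 group means over 25 tumours), with Benjamini-Hochberg adjustment over 18031 genes and a threshold of 0.05. CPM values use total counts. Ckm was also compared by exact permutation on log2(CPM + 0.5), with a pseudocount of 0.5, and correlations by permutation (scipy 1.17.1, 100000 resamples). P-values measure the spread between tumours, which no label describes beyond 1 tumour each.

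Alternatives were DESeq2 1.42.0, RLE scaling, no filter or a stricter one (a mean count of 50 and at least 1 CPM in 8 tumours), the compared groups alone, limma 3.58.1 on log2(RPKM + 1) and log2(RPKM + 0.1) for genes with a mean RPKM of at least 0.1, protein-coding genes only, the protein-coding share as covariate, and each tumour left out. The test script was tested on simulated data. Named genes were the 10 members, the 3 most abundant genes of each list, the 10 genes most like the members. Every other list gene named, among them Trim63, Xirp1, Casq2, Fabp3, Cox8b, Tnni3, Mybpc3, Actc1 and Myog, was chosen after its values were seen. The members and all lists were chosen with earlier results of these data known. Fold changes are log2 estimates from edgeR unless stated. Gene positions are from GENCODE on GRCm38, which held all 55450 gene identifiers. Some genes of the lists are not reported here.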

Additional observations from a re-analysis of the deposited data

Results flagged for a closer look

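Among 60 sets of values (each gene's level and share in each group, and their sums), 2 held a tumour set apart from the others of its group by Dixon's criterion, which chance meets in about 1 of 20 sets. The level of Acta1 in stable 3 was 83.0 CPM, below the other 5 stable tumours. The share of Myh7 among the counts of the 4 adult myosin genes in responder 1 was 1.61%, above the other 7 responders; it rested on 2 counts of 125, with a 95% Wilson interval of 0.440% to 5.65%.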

How the results depend on the processing

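Of the 10 genes, the number called between responders and non-responders was 3. It was 6 with DESeq2, 1 with the stricter filter, 0 with limma on either RPKM scale, 0 with the protein-coding share as covariate, and 1 to 7 when each tumour was left out. Between responders and stable tumours the number was 2. It was 1 with no filter, 1 with the stricter filter, 0 with limma on either scale, 0 with the covariate, and 0 to 2 when each tumour was left out. Between responders and controls it was 0, and 0 to 3 when each tumour was left out. The 1 gene called against controls in stable tumours, in non-responders and in all treated tumours was Myh7, and the number was 0 with the stricter filter and with limma on either scale, since those settings do not test Myh7. It stayed at 1 when each tumour was left out.

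With the protein-coding share as covariate, Myh1 turned from -0.26 to 0.38 between responders and non-responders and from -0.62 to 0.0155 between responders and stable tumours, and Myh4 turned from -0.79 to 0.31 in the latter; the cause was not tested. Ckm in stable tumours against controls was -0.10, 0.28 and 0.35 with the 2 limma scales, and -0.40 to 0.43 when each tumour was left out. Ckm in all treated tumours against controls was 0.0541 and 0.0908 with limma, and -0.52 to 0.31 when each tumour was left out. On log2(CPM + 0.5), leaving out each tumour moved the Ckm difference from -0.36 to 0.76 for stable tumours against controls, -0.19 to 0.99 for non-responders against controls, -0.67 to 0.0784 for stable tumours against non-responders and -1.51 to -0.84 for responders against stable tumours. The last passed without responder 6, at -1.51 (adjusted p = 0.0455 by exact permutation). Group medians of the summed level moved by less than 1 SD in every setting run, but the SD of non-responders was large (617 CPM). When each tumour was left out, the median of non-responders ran from 109% to 222% of the median over all tumours. For stable tumours that range was 114% to 123%, for controls 86.3% to 111% and for responders 55.5% to 62.2%.

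Myh8, Myh3, Tnnt1 and Tnnc1 in stable tumours against controls kept their direction and their call in every setting run that tested them, and these settings were applied to them after their values had been seen. Myh3 lost its call in non-responders and in responders against controls with no filter, with the compared groups alone and with limma. No paired analysis was possible because the labels give no replicate number shared between groups. Myh7, at up to 49 counts a tumour, is limited by depth.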
